A study of Mus musculus with 22 samples.

Results

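Arterial smooth muscle cells of the heart were compared with those of the stomach in mouse, using 6 of the series' 22 RNA-seq libraries, 3 from each tissue, and all genes. Both sets were labelled arterial smooth muscle cells isolated by fluorescence-activated cell sorting. The heart libraries carried the genotype Cspg4-DreERT/Acta2-CreERT/R26-GFP and the stomach libraries Cspg4-Dre/Acta2-CreERT/R26-GFP. Dre and Cre are recombinases: the Cspg4 (NG2) locus drives Dre, which is fused to the tamoxifen-dependent ERT domain in heart only, and the smooth muscle actin gene Acta2 drives CreERT. Tissue and genotype therefore cannot be told apart. The labels list tamoxifen as treatment for both tissues, injected intraperitoneally for 3 days at 0.75 mg per 10 g body weight. They give no age, sex or strain. Since they name no animal for any library, a p-value here reflects the spread among libraries within tissues, part or all of which may be technical. In the main fit that spread was estimated from all 22 libraries of 7 tissues, not from these 6 alone.

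Coronary smooth muscle is known to arise largely from the epicardium, the cell layer that covers the heart, whereas smooth muscle of the gut wall arises from splanchnic mesoderm under hedgehog signals from the gut lining. GATA4, GATA5 and GATA6 are zinc finger transcription factors of heart and gut, and the FOG proteins, encoded by Zfpm1 and Zfpm2, are their cofactors. Arterial tone depends on contractile proteins, on receptors for nerve and hormone signals, and on potassium and calcium channels that set the membrane potential.

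Values are the deposited signal, a read number scaled per library. Rebuilt depth was 6469302, 7647460 and 817157 reads in heart 1, 2 and 3, and 8520780, 10133278 and 11527676 in stomach 1, 2 and 3. One read was thus worth 8.0895 signal units in heart 3 and 0.4639 to 0.8766 in the other 5 libraries. Where the worth is under 1 unit, the rebuilt reads are estimates that rest on the likelihood search alone and are less certain than those of heart 3. A floor of 3 reads, which covers counting error only, lies at 24.27 in heart 3, so a gene listed at 0 there may still be present at that level. Genes above 0 numbered 12244 in heart 3, 17907 and 18938 in heart 1 and 2, and 20177 to 20558 in stomach. Across 16917 genes, log2 signal correlated at 0.974 to 0.977 between stomach libraries, at 0.94 between heart 1 and 2, and at 0.819 and 0.824 between heart 3 and the other two. Between tissues it correlated at 0.663 to 0.771. These are descriptions across genes, which are not independent replicates.

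Fold changes are log2 differences of signal + 1, heart minus stomach, with the standard error (SE) of limma's moderated test, and a gene was called at a Benjamini-Hochberg adjusted p under 0.05 over all genes tested. Of 16917 genes, 4351 were called (25.7%): 1452 higher in heart (8.58%) and 2899 higher in stomach (17.1%). The heart and stomach libraries did not overlap for 8487 genes (50.2%), of which 4287 were called. The median log2 fold change over all genes was -0.42, and -0.08 without heart 3. Without heart 3, 1239 genes were called higher in heart and 2033 higher in stomach. Of the 2899 genes higher in stomach, 2050 were at 0 in heart 3 and 696 at 0 in all 3 heart libraries. Among genes higher in heart, 29 were at 0 in all stomach libraries. Among the 8215 genes with a mean of at least 100 in both tissues the balance was the other way, with 1028 called higher in heart and 576 higher in stomach.

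**Figure D1:**
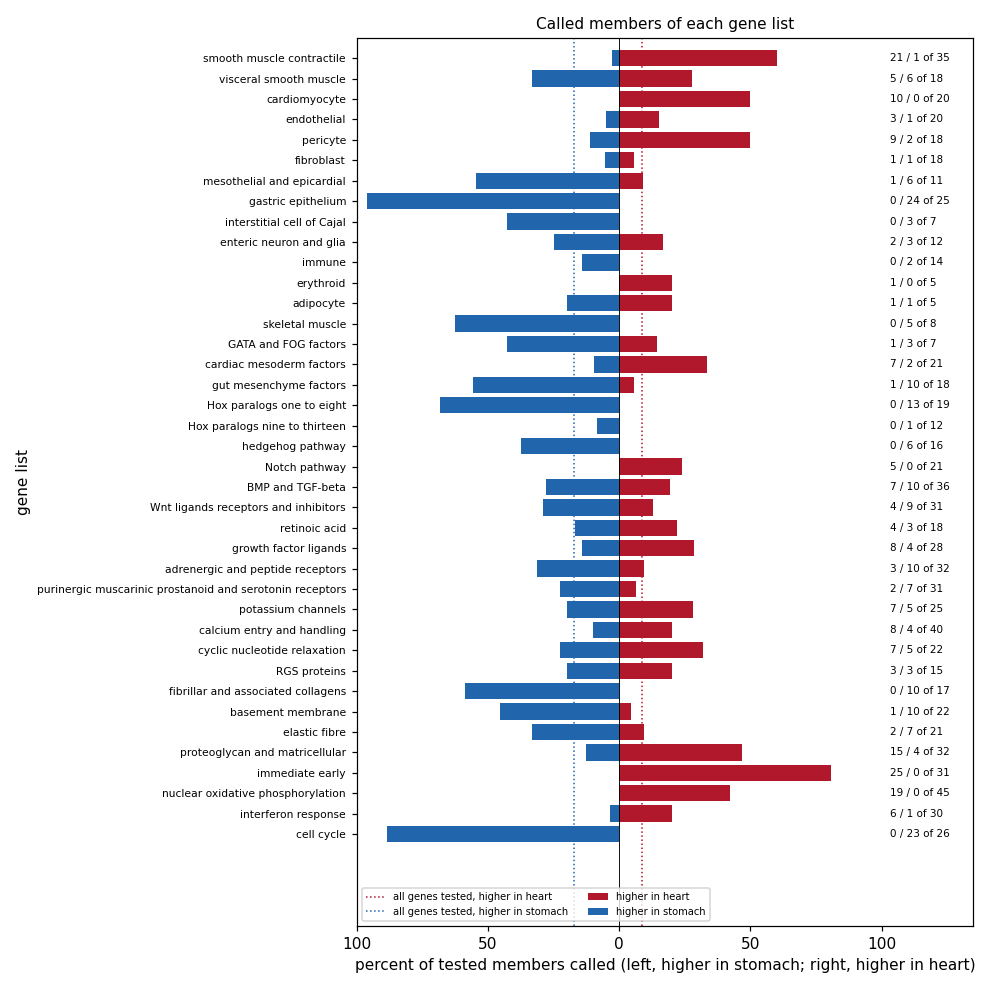
Share of tested members of each gene list called higher in heart (red, to the right) or in stomach (blue, to the left), in percent, with the counts at the right as heart / stomach of members tested; dotted lines mark 8.58% and 17.1% over all genes tested. Immediate early genes lie furthest to the right, at 25 of 31, and gastric epithelial markers furthest to the left, at 24 of 25.

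Highly expressed genes met a ceiling in read number. Acta2 (ENSMUSG00000035783, mm39 chromosome 19, 34218490 to 34232990) had 3775, 3691 and 2461 rebuilt reads in heart and 2994, 3002 and 3145 in stomach. Its signal was 3309, 2822 and 19908 in heart and 1992, 1697 and 1459 in stomach. Genes that reached 0.5 rebuilt reads per exonic base in any library are called near the ceiling here, and the signal of those held at a like read number follows what 1 read is worth. A gene with the same read number in all 6 libraries would show a log2 difference of 1.65, or 0.55 with heart 1 and 2 alone. Of 2786 such genes, 733 were called higher in heart and 441 higher in stomach. In 464 of the 733, both heart 1 and heart 2 had more rebuilt reads than every stomach library. In 440 of the 441 both had fewer, but that count is no check on the calls. A read is worth 0.4639 to 0.6654 units in the stomach libraries and 0.8766 and 0.7647 in heart 1 and 2. Higher signal in every stomach library therefore entails more reads there. Under the ceiling, 696 genes were higher in heart and 2434 higher in stomach. The part of the ceiling in the remaining calls was not tested.

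**Figure D2:**
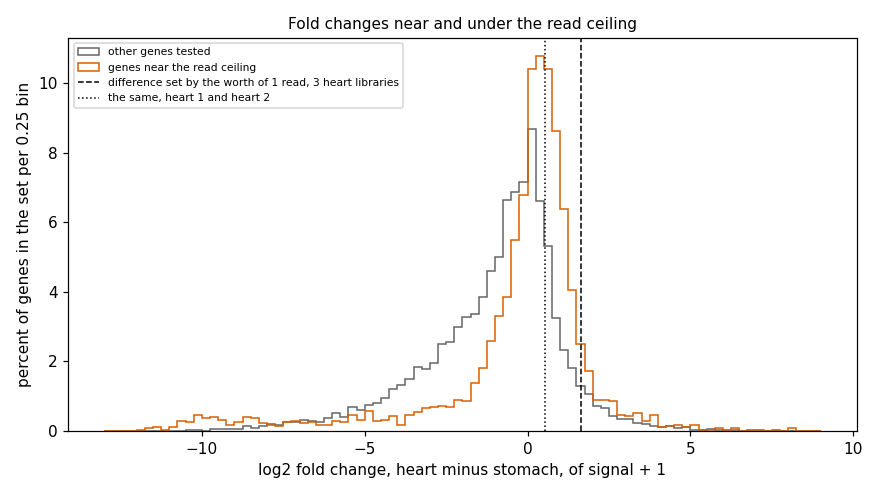
Distribution of log2 fold changes (x axis, heart minus stomach) as the percent of genes per bin (y axis) for genes near the read ceiling (orange) and the other genes tested (grey). Genes near the ceiling centre to the right of the others; the dashed line at 1.65 and the dotted line at 0.55 mark the difference that an equal read number alone gives with and without heart 3.

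The sorted cells of both tissues carried smooth muscle RNA, and the heart libraries also carried cardiomyocyte markers, the stomach libraries gastric epithelial markers. Myh11, the smooth muscle myosin heavy chain, was at 8697, 8901 and 29802 in heart and 6905, 6320 and 5302 in stomach, with a log2 difference of 1.11 (SE 0.5, limma adjusted p = 0.113). Its rebuilt reads were 9922, 11641 and 3684 in heart and 10377, 11181 and 11428 in stomach, so the libraries overlap in reads. Cspg4, whose locus drives Dre, was at 992, 1486 and 1302 in heart and 491, 482 and 622 in stomach, without overlap, and did not pass (log2 difference 1.23, SE 1.17, limma adjusted p = 0.479).

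Of 25 gastric epithelial markers tested, 24 were higher in stomach, with a median log2 fold change of -9.35 against -0.42 over all genes. Their summed signal was 28982 to 37302 in the stomach libraries, 0.542% to 0.658% of all signal, and 71 to 275 in the heart libraries. Atp4a, the proton pump subunit of parietal cells, was at 4803, 4147 and 3422 in stomach and at 1, 0 and 0 in heart. Muc5ac, the mucin of surface mucous cells, was at 3687, 4269 and 3251 in stomach and at 0 in all heart libraries, at least 383.93-fold higher in stomach against the floor of 3 reads per library, and at least 1517.36-fold without heart 3 and its high floor. Cdh1, the epithelial cadherin, was at 3758, 3826 and 2856 in stomach and also at 0 in heart. Of the markers in the table, 17 were at 0 in every heart library, while none was at 0 in every stomach library. In bulk samples, fewer cells of a type and less RNA per cell cannot be told apart.

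Of 20 cardiomyocyte markers tested, 10 were higher in heart and none in stomach, with a median of 2.1. Tnnt2, cardiac troponin T, was at 1573, 1303 and 1537 in heart and 6, 25 and 17 in stomach (log2 fold change 6.63, SE 1.28, limma adjusted p = 0.00074). Myl2, the ventricular myosin light chain, was at 169, 263 and 421 in heart and 1, 0 and 0 in stomach. Myh6, the alpha myosin heavy chain, was at 66, 321 and 186 in heart and at 1 in each stomach library. Its mean was higher in kidney, at 1211.0, than in heart, at 191.0. The Tnnt2 mean was 1471.0 in heart and 707.0 in lung, and that of Myl2 was 284.3 in heart and at most 3.0 in each other tissue. The summed signal of the list was 5143 to 8113 in heart and 1472 to 1865 in stomach, of which cardiac troponin I, Tnni3, with 722, 676 and 510, made the largest single contribution in stomach. Tnni3 was at 391, 732 and 680 in heart and overlapped.

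Markers of other cells moved less uniformly. Pericyte markers were higher in heart for 9 of 18 and in stomach for 2 (median 1.89), led by Colec11, at 1783, 1404 and 1141 against 16, 39 and 31. Pericytes are the mural cells of capillaries, which share Cspg4, Rgs5 and Notch3 with arterial smooth muscle. Endothelial markers were higher in heart for 3 of 20, Fabp4, Esam and Pecam1, and in stomach for 1, Plvap. The call of Esam was lost without heart 1, heart 3 or any stomach library. Plvap, the diaphragm protein of fenestrated capillaries, was at 181, 220 and 49 against 1755, 1529 and 1573. Mesothelial and epicardial markers were higher in stomach for 6 of 11, among them the keratins Krt8, Krt18 and Krt19 that the gastric list shares, and in heart for 1, Wt1. Skeletal muscle markers were higher in stomach for 5 of 8, and for 2 without heart 3. Fibroblast markers were called once in each direction among 18, all near the ceiling: the receptor Pdgfra was at 153, 734 and 129 in heart and 1958, 1989 and 1943 in stomach, and the call of Gsn, higher in heart, was lost without heart 3 (limma adjusted p = 0.261) and without any stomach library. Immune markers were higher in stomach for 2 of 14, a share under the 17.1% over all genes, and none without heart 3 (limma), where Csf1r had an adjusted p of 0.115 and Mrc1 of 0.0717. Their summed signal was higher in heart, 816 to 1393 against 457 to 492, most of it in the heart libraries from Cd74, the invariant chain of antigen presentation, at 1118, 1207 and 671 against 179, 166 and 271. Cd74 did not overlap between tissues and did not pass (log2 difference 2.27, limma adjusted p = 0.261). With limma on the heart and stomach libraries alone its adjusted p was 0.00572, and it passed in 9 of 22 alternatives. Markers of interstitial cells of Cajal, the gut pacemaker cells, were higher in stomach for 3 of 7, and Kit, their defining receptor, was at 346, 413 and 319 in stomach and 30, 34 and 0 in heart. Ano1, the list member with the highest mean, went the other way, at 1748, 2175 and 2945 in heart against 997, 1069 and 880 in stomach. It did not pass (limma adjusted p = 0.14), but had 0.0152 with limma on the heart and stomach libraries alone. The summed signal of the list was 2429, 2968 and 3980 in heart and 2036, 2220 and 1888 in stomach. The call of Kcnk13, 1 of the 3, held in 6 of 23 alternatives. Enteric neuron and glia markers were split, 2 higher in heart and 3 higher in stomach of 12. One of 5 erythroid and 1 of 5 adipocyte markers were higher in heart, Hba-a1 and Fabp4, and 1 adipocyte marker, Cidec, was higher in stomach. Fabp4 is the same gene counted on the endothelial list above. Hba-a1 has a near-identical copy, Hba-a2, between which reads can be split, and its call was lost without heart 1 or any stomach library (limma adjusted p up to 0.0884). The part of these cells in the gene differences below was not tested.

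The genes with the largest differences, markers of other cells and unnamed predicted genes left out, were found almost wholly in 1 of these 2 tissues. In heart they were Comp, Itih4, Lhcgr, Tbx18, Rhox5, Cyp26a1 and Trpv1, with log2 fold changes of 8.14 to 6.49. Comp, cartilage oligomeric matrix protein (ENSMUSG00000031849, chromosome 8, 70826208 to 70834716), was at 1652, 2853 and 1877 in heart and 2, 11 and 10 in stomach (SE 1.57, limma adjusted p = 0.000716). Itih4, a hyaluronan-associated protein known mainly from liver, was at 3093, 2179 and 1917 in heart and 11, 10 and 4 in stomach (log2 fold change 8.07, SE 0.77). Itih4 was not particular to heart among the 7 tissues, with a mean of 3641.7 in lung and 3221.3 in aorta. Lhcgr, the luteinizing hormone receptor, was at 146, 116 and 413 in heart and at 0 in all stomach libraries, at least 132.61-fold higher in heart and at least 77.31-fold without heart 3. Every heart library exceeded every stomach library for each of these 7 genes, which was a condition of their choice. The homeobox gene Rhox5 was at 267, 144 and 154 against 0, 2 and 0, and Trpv1, the capsaicin-gated cation channel, at 76, 153 and 121 against 0, 0 and 1.

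In stomach the 7 largest, after the same genes were left out, were Clic6, Mucl3, Dmbt1, Slc35g1, Vsig1, Chga and Gcnt3, with log2 fold changes of -11.47 to -10.66. Of the gastric markers above, Muc5ac, Cdh1 and Atp4a differed by more. All 7 lay near the ceiling, and 6 were at 0 in all heart libraries; Dmbt1 had a value of 1 in heart 2, and its mean was 4406.2 in intestine against 3326.0 in stomach. Chga, the chromogranin of endocrine cells, was at 1765, 1798 and 1598, and Vsig1, a junction protein of the gastric lining, at 2113, 2180 and 1628. Like the gastric markers above, these are genes known from epithelium; the share of the signal that came from epithelial cells was not tested.

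Genes expressed in both tissues, with means of at least 100, differed by up to 4.52 towards heart and -5.51 towards stomach on the log2 scale. Higher in heart were the odorant receptor gene Or51e1, the neuroserpin Serpini1, the potassium channel subunit Kcnab1, Arid5a, Amigo2, the lubricin gene Prg4 and Ephx3. Or51e1 was at 4344, 3617 and 8850 in heart and 196, 214 and 270 in stomach (log2 fold change 4.52, SE 0.62, limma adjusted p = 2.02e-05), and Serpini1 at 4007, 3293 and 6520 against 180, 190 and 245. Higher in stomach were Col5a3, Erlin1, Nqo1, Efemp1, Gga2, Lamb1 and Sema3c, but heart 3 was at 0 or 8 for all 7. Nqo1, a quinone reductase, was at 247, 145 and 0 in heart and 1486, 1418 and 1150 in stomach, with a log2 fold change of -5.34 that came to -2.82 without heart 3. The calls of Col5a3 and Lamb1 were lost without heart 3, at -3.06 and -3.58 with adjusted p of 0.168 and 0.0826. Col5a3 was also lost without any single stomach library, and all 7 were lost when the heart and stomach libraries were fitted alone.

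**Figure D3:**
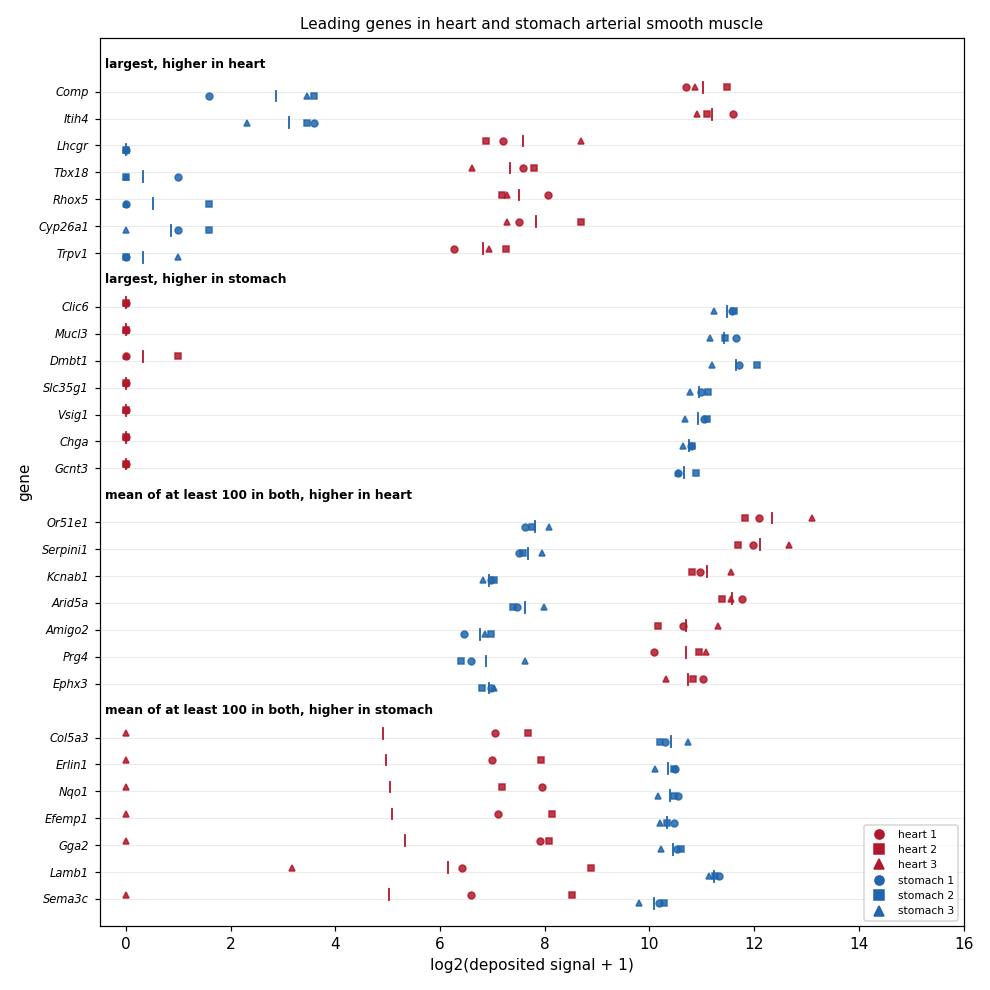
Deposited signal on a log2(signal + 1) scale (x axis) for the 28 leading genes (y axis), with a symbol per library and a vertical tick at the group mean, heart red and stomach blue. The first 7 genes have all stomach points at a signal of at most 11 and the next 7 all heart points at 0 or 1. In the lowest block heart 3, the red triangle, sits at 0 except for Lamb1.

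Of the 28 leading genes, 22 had a promoter window in the RefSeq table (GRCm38.p6). The 250 bases before the start were searched for AGATAA or TGATAA, the letters GATA factors bind, on both strands, and for the CArG box of serum response factor. The GATA forms differ only in their first letter, so 1 position never matches both. Over all 27025 RefSeq promoters of that length, 17.0% held a GATA match and 1.4% a CArG match, and among the 12319 windows of genes tested 10.0% and 1.19%. Of the 22, 3 held a GATA match and 1 a CArG match, and 3 of these windows are shown, as 1 leading gene of each tissue with a GATA match and the gene with the CArG box. A match is a description of letters, not a binding site.
Itih4 (GATA match in capitals, chr14:30886368-30886407, plus strand): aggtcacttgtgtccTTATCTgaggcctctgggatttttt
Mucl3 (GATA match in capitals, chr17:35643791-35643830, minus strand): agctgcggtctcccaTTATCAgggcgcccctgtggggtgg
Trpv1 (CArG match in capitals, chr11:73233938-73233977, plus strand): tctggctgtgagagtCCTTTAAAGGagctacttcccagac
Pln, which encodes the calcium pump inhibitor phospholamban and was at 759, 633 and 1133 in heart against 33, 54 and 55 in stomach, held 2 GATA matches, 183 and 82 bases before its start. It is also on the list of cardiomyocyte markers. Only 72.8% of tested genes had a window, so shares of promoters with a motif among called genes were not compared.

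Among the GATA factors, Gata4 was present in both tissues, whereas Gata5 was low in heart. Gata4 (ENSMUSG00000021944, chromosome 14, 63436371 to 63509141) was at 749, 1367 and 874 in heart and 2114, 2229 and 1795 in stomach. All stomach libraries lay above all heart libraries, but the difference did not pass (log2 -1.08, SE 0.77, limma adjusted p = 0.33); fitted on the heart and stomach libraries alone the adjusted p was 0.0323. Gata4 averaged 486.2 ± 126.0 (SD, n = 4) in intestine, 19.7 ± 10.7 (SD, n = 3) in lung and 5.7 ± 9.0 (SD, n = 3) in bladder, and was at 0 in aorta and kidney. Gata6 was at 379, 543 and 65 in heart and 869, 958 and 901 in stomach (log2 fold change -1.93, SE 0.59, limma adjusted p = 0.0207). That call was lost without heart 3, at -1.0 with an adjusted p of 0.138, and without any 1 of the stomach libraries. Gata5 was at 7, 18 and 0 against 387, 528 and 520 (-6.47, SE 0.99, limma adjusted p = 6.48e-05), and -5.27 without heart 3.

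The FOG cofactors went opposite ways. Zfpm1 was at 124, 195 and 16 in heart and 733, 835 and 887 in stomach, with a log2 fold change of -3.45 that came to -2.38 without heart 3. Zfpm2 was at 446, 820 and 898 in heart and 59, 91 and 85 in stomach (3.15, SE 0.44, limma adjusted p = 2.35e-05), and its heart mean was also above the mean of each of the other 5 tissues, the nearest being bladder at 284.7 ± 108.6 (SD, n = 3). In all, 1 of 7 GATA and FOG genes tested was higher in heart and 3 were higher in stomach.

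Factors of heart and epicardial mesoderm were higher in heart for 7 of 21 and in stomach for 2 (median 1.18). Tbx18, a T-box factor of the epicardium (ENSMUSG00000032419, chromosome 9, 87584853 to 87613313), was at 192, 221 and 97 in heart and 1, 0 and 0 in stomach (log2 fold change 7.0, SE 0.88, limma adjusted p = 7.21e-06). The Tbx18 mean was 170.0 in heart and 123.7 in aorta. Wt1, another epicardial factor, was at 110, 90 and 24 against 6, 6 and 1. Its mean was 84.7 in bladder and 83.7 in kidney, against 74.7 in heart. Tbx20 was at 197, 469 and 0 in heart and at 0 in all stomach libraries, so heart 3 overlapped stomach, and with heart and stomach fitted alone the adjusted p was 0.157. Foxc2, a forkhead factor of vascular and outflow mesoderm, was at 537, 685 and 744 against 21, 30 and 34, and Mef2c, a muscle MADS-box factor, at 1817, 2222 and 4433 against 522, 556 and 552. The means of both were higher in kidney than in heart, at 711.3 against 655.3 for Foxc2 and 3205.3 against 2824.0 for Mef2c. Foxc1 and Prrx1 completed the 7. Higher in stomach were Isl1, at 21, 11 and 0 against 460, 478 and 495, and Tbx1, at 0 in all heart libraries and 35, 24 and 28 in stomach. Isl1 marks heart progenitors and also stomach mesenchyme, and both lists hold it.

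Gut mesenchyme factors were higher in stomach for 10 of 18 and in heart for 1 (median -3.33), and for 8 and 1 without heart 3 (median -1.78). Barx1, a homeobox factor of stomach mesenchyme (ENSMUSG00000021381, chromosome 13, 48816474 to 48819983), was at 1093, 905 and 959 in stomach and 0, 1 and 0 in heart (log2 fold change -9.61, SE 0.96, limma adjusted p = 4.52e-07). Its mean was 228.5 ± 150.5 (SD, n = 4) in intestine and at most 2.3 in each of the other 4 tissues. Pitx1, a homeobox factor of hindlimb and posterior mesoderm, was at 910, 778 and 887 in stomach and 0 in all heart libraries, at least 88.22-fold higher in stomach and at least 348.64-fold without heart 3. The Pitx1 mean was higher in bladder, at 1104.3, than in stomach, at 858.3. Foxf2, a hedgehog-responsive forkhead factor, was at 964, 761 and 816 against 1, 12 and 0, and its mean in intestine, 1338.2, exceeded the 847.0 of stomach. Its relative Foxf1 differed less, at 1515, 1425 and 1238 in stomach and 506, 206 and 129 in heart. The exception was Tlx1, a homeobox factor needed for the spleen, at 73, 171 and 73 in heart and 1, 0 and 0 in stomach. Nr2f2, COUP-TFII, was at 1342, 1729 and 1197 against 1004, 1026 and 997 and did not pass (adjusted p = 0.211).

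Hox genes, which mark position along the body axis, were higher in stomach for 13 of 19 tested members of paralog groups 1 to 8 and in heart for none (median -2.94). Hoxc4 was at 94, 57 and 96 in stomach, Hoxb6 at 61, 46 and 92, and Hoxb7 at 51, 46 and 65, each with 0 in all heart libraries. Hoxa3 was at 111, 96 and 123 in stomach and 17, 13 and 0 in heart. Of 12 tested members of groups 9 to 13, 1 was higher in stomach, a share under the 17.1% over all genes. It was Hoxd9, at 23, 14 and 12 against 0, 1 and 0.

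Hedgehog pathway genes were higher in stomach for 6 of 16 and in heart for none (median -1.97), and 5 of them passed without heart 3. Hhip, a hedgehog-binding protein that the pathway itself induces, was at 1769, 1844 and 1403 in stomach and 20, 15 and 0 in heart (log2 fold change -7.9, SE 1.48, limma adjusted p = 0.000577), and differed by -6.5 without heart 3. The Hhip mean of 1672.0 in stomach was below those of lung (3623.3), intestine (3035.5) and bladder (2766.3). The ligand Shh, known from the gut epithelium, was at 69, 83 and 64 in stomach and 0, 1 and 0 in heart. Scube1 was at 637, 500 and 631 against 8, 25 and 0, and the receptor Ptch1 and the transcription factors Gli1 and Gli2 completed the 6. Gas1, a hedgehog co-receptor, was at 1396, 1980 and 1594 in heart and 1606, 1432 and 1586 in stomach, with a difference of 0.09 (SE 0.22).

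Notch pathway genes went the other way, with 5 of 21 higher in heart and none in stomach (median 0.75). The transcriptional targets led. Hey2 was at 527, 478 and 663 in heart and 65, 51 and 87 in stomach (log2 fold change 3.04, SE 0.45, limma adjusted p = 4.44e-05), the feedback inhibitor Nrarp at 582, 539 and 510 against 90, 94 and 99, and Heyl at 2106, 2773 and 3487 against 824, 689 and 874. Hes1 and the coactivator Maml2 completed the 5. The receptor Notch3, the main Notch receptor of arterial smooth muscle, was at 1608, 2468 and 2823 against 991, 1064 and 1358 and did not pass (log2 0.99, adjusted p = 0.273). With limma on the heart and stomach libraries alone its adjusted p was 0.0433, and it passed in 2 of 22 alternatives.

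**Figure D4:**
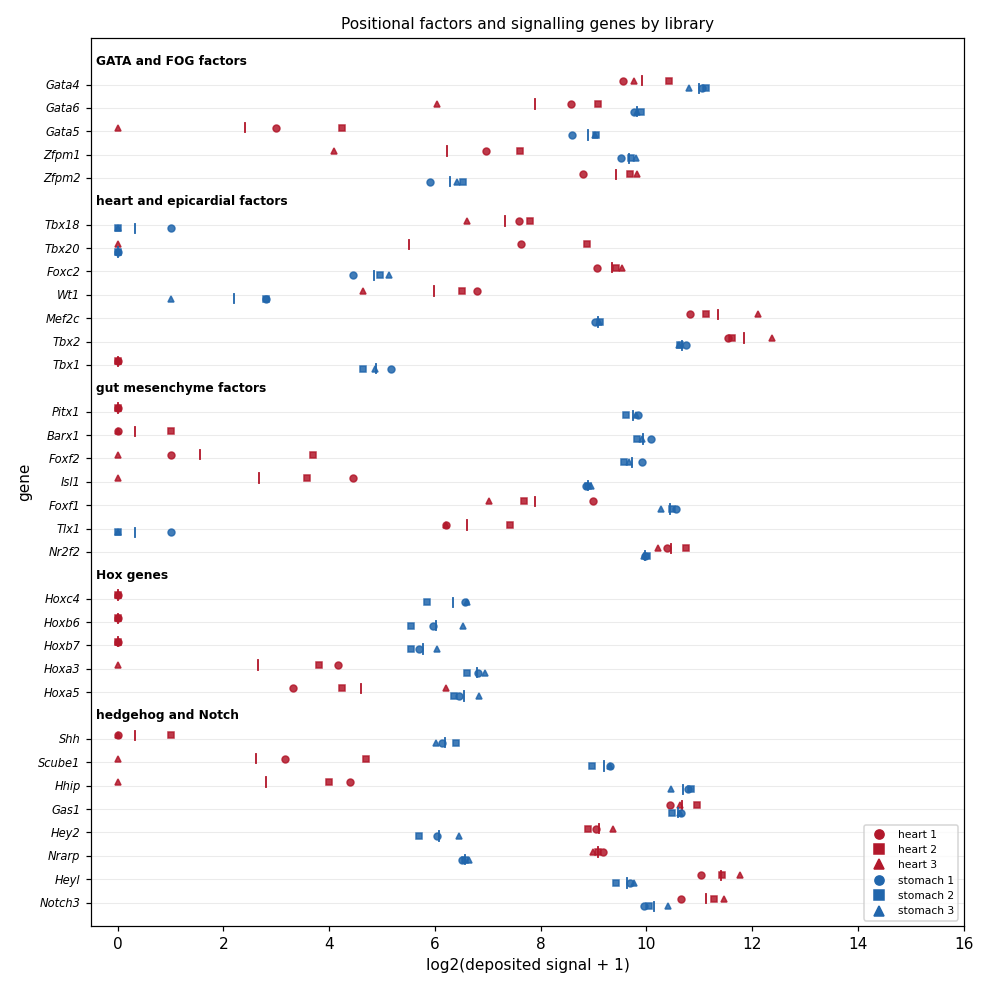
Deposited signal on a log2(signal + 1) scale (x axis) of positional factors and of hedgehog and Notch genes (y axis), a symbol per library and a vertical tick at the group mean, heart red and stomach blue. Gut mesenchyme, Hox and hedgehog genes have the stomach points to the right, except Tlx1, Nr2f2 and Gas1, and Tbx18, Zfpm2 and Hey2 have the heart points to the right.

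BMP and TGF-beta genes were called in both directions, 7 higher in heart and 10 higher in stomach of 36. The BMP-like factor Gdf10 was at 738, 977 and 1019 in heart and 58, 90 and 102 in stomach. The BMP antagonist Grem1 was at 187, 90 and 214 in stomach against 0 in all heart libraries. Bmp7 was at 428, 382 and 476 in stomach and 4, 0 and 65 in heart. Without heart 3 the counts were 6 and 6. Wnt ligands, receptors and inhibitors were higher in heart for 4 of 31 and in stomach for 9, and for 2 and 7 without heart 3. The Wnt inhibitors divided: Wif1 was at 717, 1317 and 534 in heart against 29, 12 and 41, whereas Sfrp1 was at 187, 960 and 421 against 3689, 3348 and 3041 in stomach. The ligand Wnt4 was at 12, 15 and 8 in heart and 288, 272 and 287 in stomach.

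Retinoic acid genes were split, 4 higher in heart and 3 higher in stomach of 18. Over all genes the shares were 8.58% and 17.1%, so the stomach count is near that of genes at large. Cyp26a1, which degrades retinoic acid, was at 180, 415 and 154 in heart and 1, 2 and 0 in stomach (log2 fold change 6.96, SE 0.66, limma adjusted p = 2.14e-07). Aldh1a2, which makes it, was at 36, 109 and 146 in heart and 533, 458 and 550 in stomach. Growth factor ligands were higher in heart for 8 of 28 and in stomach for 4. Ntf3, a neurotrophin, was at 1445, 964 and 1278 in heart against 211, 245 and 248 in stomach. Hbegf, an EGF receptor ligand, was at 1997, 1835 and 3066 against 266, 272 and 248. Nrg1, an ERBB ligand, was at 470, 471 and 492 in stomach and 2, 1 and 8 in heart.

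Receptors for vasoactive signals were called in both directions. Among adrenergic and peptide receptors 3 of 32 were higher in heart and 10 in stomach (median -1.21), and 4 and 7 without heart 3 (median -0.8). The 3 higher in heart are near the 8.58% over all genes. Npy1r, the neuropeptide Y receptor, was at 933, 1035 and 2467 in heart and 83, 118 and 90 in stomach (log2 fold change 3.79, SE 0.33, limma adjusted p = 9.12e-08). Ramp1, a subunit of the CGRP receptor, was at 1257, 905 and 1780 against 297, 288 and 354, and Uts2r, the urotensin receptor, at 53, 130 and 113 against 2, 0 and 0. In stomach the angiotensin receptor Agtr1b was at 327, 265 and 202, against 6, 1 and 0 in heart. The alpha-2A adrenergic receptor Adra2a was at 148, 79 and 191 against 4, 2 and 0, and the neurokinin receptor Tacr2 at 49, 75 and 80 against 0 in all heart libraries. The endothelin receptor Ednra was at 1558, 1834 and 1747 in heart and 1449, 1414 and 1173 in stomach, a log2 difference of 0.35 (SE 0.57).

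Among purinergic, muscarinic, prostanoid and serotonin receptors, 2 of 31 were higher in heart, under the 8.58% over all genes, and 7 in stomach. This list also holds sphingosine phosphate and thrombin receptors. S1pr3, a sphingosine 1-phosphate receptor, was at 4657, 4233 and 13420 in heart and 510, 460 and 450 in stomach (log2 fold change 3.76, SE 0.59, limma adjusted p = 8.26e-05). Its rebuilt reads, 5313, 5536 and 1659 in heart against 766, 814 and 970, also did not overlap. The muscarinic receptor Chrm1 was at 112, 91 and 93 in stomach and the serotonin receptors Htr1b and Htr2b at 108, 99 and 71 and at 35, 36 and 56, all 3 with 0 in every heart library.

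Potassium channels were higher in heart for 7 of 25 and in stomach for 5, and for 3 in stomach without heart 3. The voltage-gated channel Kcna5 was at 1676, 1908 and 1577 in heart and 177, 157 and 150 in stomach (log2 fold change 3.41, SE 0.6, limma adjusted p = 0.000324). Its partner subunit Kcnab1 was at 1992, 1792 and 3001 against 124, 129 and 112. Kcnj12, an inward rectifier, was at 489, 443 and 469 against 13, 11 and 18, and its adjusted p was 0.0545 without stomach 2. In stomach the calcium-activated channel Kcnn3 was at 383, 365 and 515 against 1, 4 and 0 in heart, and Kcnq1, which gastric parietal cells also express, at 1693, 1736 and 1487 against 58, 60 and 0.

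Calcium entry and handling genes were higher in heart for 8 of 40 and in stomach for 4, the latter under the 17.1% over all genes. Besides Trpv1 and Pln in heart, Itpr3, an inositol trisphosphate receptor, was at 21, 32 and 0 in heart and 626, 870 and 637 in stomach, and the mechanosensitive channel Piezo1 at 37, 45 and 73 against 298, 281 and 388. Pln is also on the list of cardiomyocyte markers, and which cells carried it was not tested. Atp2a2, the calcium pump that phospholamban inhibits, was at 3214, 4729 and 8397 in heart and 3038, 3021 and 2676 in stomach and did not pass (adjusted p = 0.32). Genes of cyclic nucleotide relaxation were higher in heart for 7 of 22 and in stomach for 5, and for 6 and 1 without heart 3. Subunits of the nitric oxide receptor guanylyl cyclase were higher in heart: Gucy1a1 was at 3864, 4284 and 6965 against 1256, 1307 and 1280, and Gucy1b1 at 2758, 3153 and 3980 against 659, 674 and 712. A further subunit, Gucy1a2, was also called, and leaving out stomach 1, stomach 2 or heart 2 ended its call. The phosphodiesterases differed in direction. Pde4b was at 2716, 2572 and 6277 in heart and 549, 565 and 588 in stomach, and Pde1c at 10, 1 and 0 against 119, 129 and 130. RGS proteins, which end signals of G protein-coupled receptors, were called 3 times in each direction among 15. Rgs4 was at 4450, 4096 and 13024 in heart and 606, 618 and 457 in stomach, and Rgs7bp at 1119, 938 and 1416 against 146, 127 and 171. Rgs5 was at 6788, 6120 and 32601 against 2366, 2211 and 2211, and its call was lost without heart 3 (adjusted p = 0.0996).

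**Figure D5:**
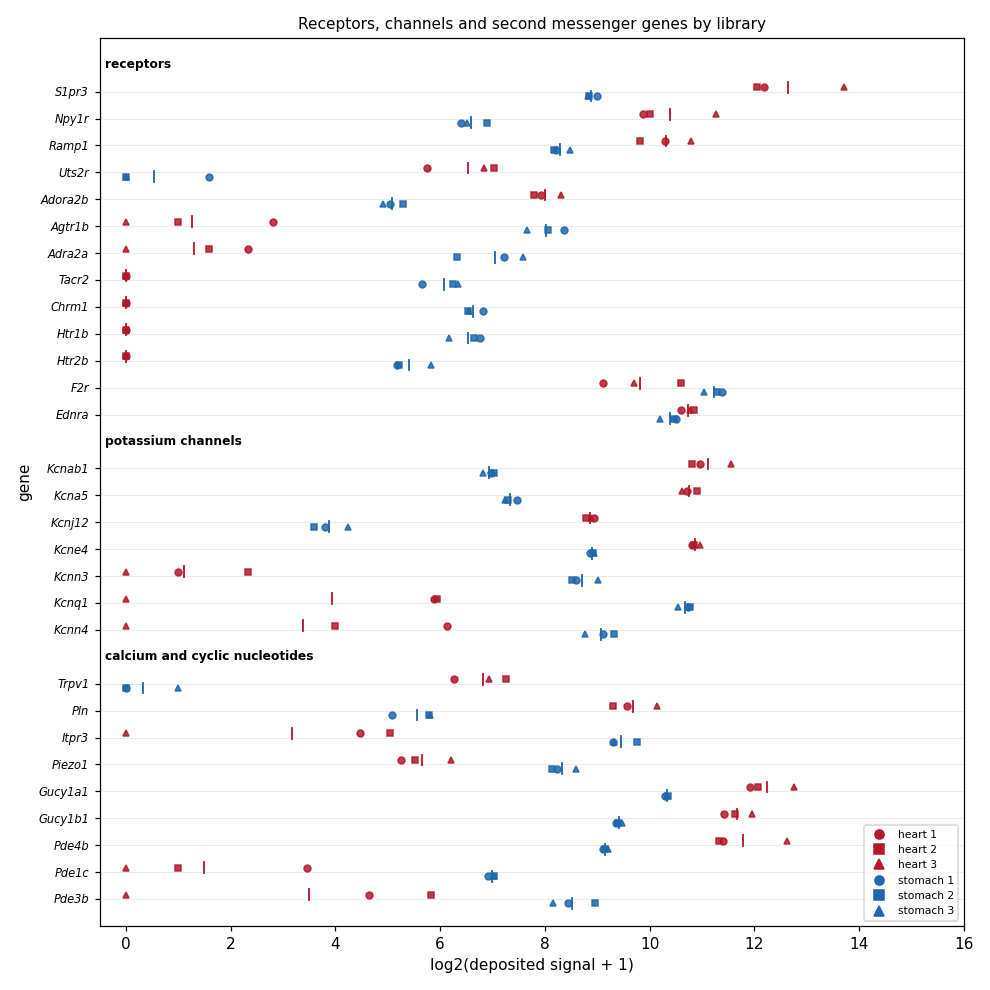
Deposited signal on a log2(signal + 1) scale (x axis) of receptors, potassium channels and calcium or cyclic nucleotide genes (y axis), a symbol per library and a vertical tick at the group mean, heart red and stomach blue. Most genes form separate groups of 3 points; Chrm1, Htr1b, Htr2b and Tacr2 have all heart points at 0, and Ednra has the groups close together.

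Contractile genes were higher in heart for 21 of 35 and in stomach for 1 (median 1.13), but 25 of the 35 lay near the ceiling. Without heart 3 the counts were 13 and 1 (median 0.62), and 10 and 2 when heart and stomach were fitted alone. Of the 19 near-ceiling members called higher in heart, 9 had more rebuilt reads in heart 1 and 2 than in every stomach library. Sncg, gamma-synuclein, was at 1161, 983 and 4255 in heart and 156, 127 and 137 in stomach (log2 fold change 3.59, SE 0.61, limma adjusted p = 0.0002), and 2.93 without heart 3. Ldb3, a Z-disc protein, was at 1174, 1363 and 2888 against 294, 258 and 361. Acta2 had a log2 fold change of 1.74 (SE 0.5, limma adjusted p = 0.0142), close to the 1.65 of equal reads, and 0.84 with an adjusted p of 0.0677 without heart 3; it was also lost without stomach 3. The one member higher in stomach was Pgm5, a protein of muscle adhesion sites, at 36, 49 and 32 against 214, 192 and 238. The 18 visceral smooth muscle genes were split, 5 higher in heart and 6 in stomach. Rbpms2, an RNA-binding regulator of visceral muscle, was at 2191, 1800 and 4045 in heart and 468, 399 and 446 in stomach, and desmin, Des, at 3071, 2752 and 8373 against 2420, 2099 and 1906 (adjusted p = 0.476).

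Matrix genes divided by kind. Fibrillar and associated collagens were higher in stomach for 10 of 17 and in heart for none (median -1.68), and for 6 without heart 3 (median -0.98). Col6a3 was at 172, 418 and 113 in heart and 4301, 4109 and 4384 in stomach (log2 fold change -4.4, SE 0.52, limma adjusted p = 3.36e-06), and Col12a1 at 41, 120 and 210 against 1062, 1092 and 1346. The most abundant collagens did not pass: Col3a1 was at 5060, 7013 and 6407 against 6796, 5759 and 4917, and Col1a2 differed by 0.05 (SE 0.31). Both lie near the ceiling. Basement membrane genes were higher in stomach for 10 of 22 and in heart for 1 (median -1.77), and for 7 and 0 without heart 3. Lama1 was at 186, 83 and 158 in stomach and 0 in all heart libraries, and Lamb3, a laminin chain of epithelia, at 451, 505 and 512 against 0, 29 and 0. The single member higher in heart, Lamb2, was at 2704, 4925 and 8648 against 2309, 2139 and 2338, with an adjusted p of 0.0407 that came to 0.237 without heart 3; leaving out heart 2 or any stomach library also ended the call.

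Elastic fibre genes were higher in heart for 2 of 21 and in stomach for 7, and for 2 and 5 without heart 3. The heart count is near the 8.58% over all genes. Fbln5, an elastin assembly protein, was at 3758, 3251 and 5064 in heart and 1614, 1374 and 1401 in stomach (log2 fold change 1.44, SE 0.22, limma adjusted p = 5.68e-05). Elastin, Eln, was at 2011, 2975 and 720 in heart and 4675, 4022 and 3426 in stomach (-1.3, SE 0.39, limma adjusted p = 0.0178), and lost its call without heart 3 (-0.71, adjusted p = 0.128), stomach 1 or stomach 2. Proteoglycan and matricellular genes were higher in heart for 15 of 32 and in stomach for 4 (median 0.9), and for 8 and 3 without heart 3. Of the 32, 24 lay near the ceiling, and of the other 8, 3 were called in each direction. Of the 12 near-ceiling members called higher in heart, 8 had more rebuilt reads in heart 1 and 2 than in every stomach library. Besides Comp and Prg4, Clec3a was at 68, 84 and 65 in heart and 0 in all stomach libraries. Tenascin-C, Tnc, was at 75, 133 and 340 in heart and 3181, 3115 and 2895 in stomach (log2 fold change -4.34, SE 0.49, limma adjusted p = 2.08e-06).

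Genes of cell state also differed. Immediate early genes, which rise within minutes of stimulation, were higher in heart for 25 of 31 and in stomach for none (median 1.45), with 27 near the ceiling. Without heart 3, 14 were called (median 0.96). Of the 24 near-ceiling members called, 20 had more rebuilt reads in heart 1 and 2 than in every stomach library. Nr4a3 was at 540, 464 and 655 in heart and 18, 16 and 19 in stomach (log2 fold change 4.88, SE 0.88, limma adjusted p = 0.000376), and Egr2 at 2616, 3033 and 2233 against 174, 189 and 245. Egr1 was at 5287, 4666 and 26339 against 3731, 3244 and 2745, with 6031 and 6102 reads in heart 1 and 2 and 5607 to 5917 in stomach, and had an adjusted p of 0.134 without heart 3; leaving out stomach 2 or stomach 3 also ended the call.

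Cell cycle genes were higher in stomach for 23 of 26 and in heart for none (median -5.3), and for 16 without heart 3. Mki67, a marker of cycling cells, was at 617, 578 and 496 in stomach and 0, 0 and 8 in heart, and Top2a, a topoisomerase of dividing cells, at 667, 934 and 599 against 1, 1 and 0. The summed signal of the list, 10882 to 13123 in stomach and 1254 to 2013 in heart, was higher in stomach, as was that of the gastric epithelial list; which cells carried it was not tested. Nuclear genes of oxidative phosphorylation were higher in heart for 19 of 45 and in stomach for none (median 0.74), but only 2 without heart 3 (median 0.48), 4 with heart and stomach fitted alone and 4 after median-of-ratios rescaling. None of the 16 near-ceiling members called had more reads in heart 1 and 2 than in every stomach library. Atp5b, an ATP synthase subunit, had 3455, 3480 and 2144 reads in heart and 3517, 3599 and 3593 in stomach. Interferon response genes were higher in heart for 6 of 30 and in stomach for 1, and for 3 and 1 without heart 3; Irf1, an interferon-induced transcription factor, was at 2648, 2110 and 6650 in heart and 475, 444 and 523 in stomach.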

How the data were processed

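Sorted arterial smooth muscle RNA was made into libraries with SMART-Seq v4 from at most 10 ng of total RNA, per the labels' protocols. The submitters' processing notes name featureCounts 2.0.4, STAR 2.7.10a, DESeq, DESeq2 1.36.0, Trimmomatic 0.39 and Picard 3.0.0 with the build mm39, without their order. The authors deposited 1 table of signal for 28099 genes: whole numbers that, judged from the values, are read numbers scaled by 1 factor per library and rounded.

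What 1 read is worth was found per library by a likelihood search over values of 15 to 1500, tested on simulated data, and dividing by it gave rebuilt reads. The search grid near a worth of 1 was made finer after earlier versions failed on bladder 2 and in that test; the last widening left the worth in all 22 libraries the same to 4 decimals. In heart 3, 99.89% of values lay on whole multiples within rounding; where 1 read is worth under 1 unit nearly every number does, so the share says little. edgeR 4.0.16 on the rebuilt reads called 4415 genes. Exonic lengths of 96.2% of genes were taken by gene ID from GENCODE M21 (GRCm38).

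limma-trend 3.58.1 (R 4.3.3) was fitted to log2(deposited signal + 1) of all 22 libraries in 7 tissue groups, keeping the 16917 genes that reached 10 units in 3 or more libraries; the script was also tested on simulated data. Adding 1 unit understates changes of genes at a few units. For genes at 0 in heart 3, where 1 read is worth 8.0895 units, the fold can instead be overstated. That of Nqo1 was -5.34 with heart 3 and -2.82 without it. The members and gene lists were chosen with earlier results of these data known. Named genes are the 7 largest calls in each direction without overlap of libraries and with a mean of at least 50 in the higher tissue, and the 7 largest in each direction with a mean of at least 100 in both. Unnamed predicted genes and markers of other cells were skipped. In each list up to 3 calls per direction and the 2 highest means were named, and Acta2, Myh11, Cspg4, Gata4 and Gata6 always. Foxc1, Prrx1, Ptch1, Gli1, Gli2, Hes1 and Maml2 lie outside the rule and were named after their values were seen, to complete a count. A planned comparison of actin protein sequences was not made. Some genes the rule named are not reported here.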

Additional observations from a re-analysis of the deposited data

How the results depend on the processing

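The counts were recomputed in 23 alternatives, 2 of them chosen after seeing the data. Genes called in both kept their direction in every alternative, and the 4351 calls came to between 2997 and 7214. The count of 4351 rose to 7214 with array weights and to 7070 with heart and stomach fitted alone without heart 3, an alternative chosen after seeing the data. Genes higher in heart, 1452, came to 2259 with voom, 2298 without aorta and heart 3, 2887 with array weights, 3033 in the added fit and 675 under the read ceiling only. Genes higher in stomach were 4327 with array weights against 2899. Leaving out 1 library gave 3006 to 5051 calls, 932 to 1415 higher in heart and 2033 to 3636 higher in stomach; the 2 lowest counts higher in heart were 932 without stomach 2 and 952 without stomach 3. The share of calls higher in heart was 33.4%, and between 22.5% under the ceiling and 42.9% in the added fit, with 41.7% by edgeR and 40.0% with array weights. Median-of-ratios rescaling moved the median log2 fold change from -0.42 to -0.51.

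Deviations from the tissue mean correlated at -0.009, -0.006 and -0.047 between same-numbered heart and stomach libraries, and at -0.04 to 0.044 between the others. These values cannot tell whether same-numbered libraries shared an animal, since the labels name none. With the replicate block 3962 genes were called, 1329 and 2633. Of 228 named genes 198 were called, 130 in every alternative and 149 in every fit that left out 1 library, and no called one changed direction. Of those not called, Flna, Tnni3, Col3a1, Gas1, Col1a2 and Ltbp4 changed sign in some alternatives, at log2 values between -0.62 and 0.33. Without heart 3 the fold of 65 of the 198 moved by over 1.5 times, 55 of them towards no difference. With heart and stomach fitted alone, the limma adjusted p was 0.0586 for Kit and 0.0641 for Hoxa3, and after thinning to equal depth 0.385 for Cidec and 0.121 for Hoxd9. Searching for the worth of 1 read from a value of 30 changed it in kidney 3, from 1.1337 to 0.347, and left it the same in the other 21 libraries, all heart and stomach libraries among them. Low depth in heart 3 limits low genes there.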
